A study of Homo sapiens with 6 samples.

Results

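The amino acid transporter genes of the solute carrier families SLC1, SLC3, SLC7, SLC36, SLC38 and SLC43 were examined in breast cancer cells in which the small RNA tRF-1-Ser had been targeted. The rule used family names and a count minimum, not differences between groups. Of 36517 genes in the count table, 40 carried such a name, and 25 of these had at least 10 counts in at least 3 libraries and are described here as the members. In all, 19841 genes met the same minimum. Each of the 25 reached 10 counts in at least 1 library of each group. SLC38A5 met the minimum through its shtRF libraries (11, 10 and 12 counts), as its controls (6, 8 and 12 counts) would not have met it alone.

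The cells were MDA-MB-453, an established human breast cancer line of luminal type. Lentiviral lines carrying a short hairpin against tRF-1-Ser (shtRF, n = 3) were compared with lines carrying a negative-control hairpin (control, n = 3) at day 3, and both groups therefore carried a lentiviral hairpin vector. tRF-1-Ser is a fragment cut from the 3′ trailer of a serine tRNA precursor, and the mRNA libraries do not measure it. The methods call the replicates biological, but do not state whether the 3 libraries of a group came from separate transductions. The p-values therefore set each difference between groups against the spread between these libraries, which may not include the spread between transductions.

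The libraries held 63541413 to 78917459 counts, and the markers of the line were in place. ERBB2 lay between 345 and 426 CPM (counts scaled to a common library total) and KRT8 between 1531 and 2849 CPM. ESR1, PGR, CD44 and KRT5 stayed at or under 0.387 CPM in every library. Of 6 markers of blood, endothelial, smooth muscle and fibroblast cells, COL1A1 reached 20.5 to 35.2 CPM and the other 5 stayed at or under 0.291 CPM.

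Amino acids do not cross the plasma membrane by themselves, and cells use carriers that overlap in what they move. Exchangers such as SLC7A5 and SLC1A5 swap one amino acid for another, whereas sodium-coupled carriers such as SLC38A1 and SLC38A2 bring about net uptake. SLC7 light chains do the transport but need a heavy chain of the SLC3 family to reach the membrane. Leucine brought in by SLC7A5 and arginine sensed by SLC38A9 at the lysosome are known inputs to the growth kinase mTORC1, and cystine brought in by SLC7A11 is used to make glutathione.

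At an adjusted p under 0.05 in edgeR's quasi-likelihood test over 19628 genes, 10 of the 25 members were called, or 40%, against 39.5% of all tested genes. Of these, 4 were higher in shtRF cells (background 20.6%) and 6 were lower (background 18.9%). The share of members called was thus close to that of all genes, and the median log2 fold change of the members was 0.0021 against -0.0025 over all tested genes. The sizes were uneven: 4 members were more than 2-fold lower, against 3.11% of all tested genes called at that size and direction, and no member was more than 2-fold higher (5.77% of all tested genes were called at more than 2-fold either way). The groups did not overlap for 9 members, or 36%, against 48.7% of all tested genes.

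**Figure D1:**
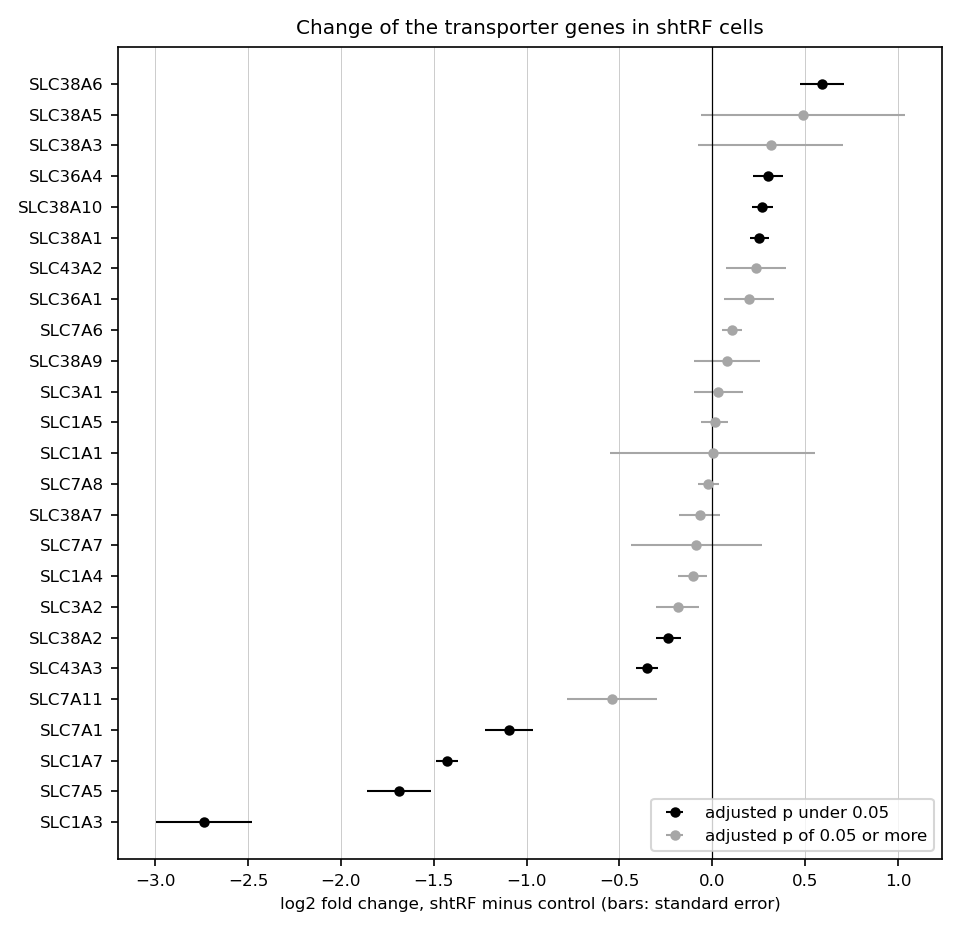
Log2 fold change of each of the 25 members (shtRF minus control, x axis) with its standard error (bars), black where edgeR's adjusted p was under 0.05 and grey otherwise. SLC1A3, SLC7A5, SLC1A7 and SLC7A1 stand apart on the left, between -2.74 and -1.09, and SLC38A6 lies farthest to the right at 0.59.

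The 4 members with the largest falls were a pair of glutamate transporters, the light chain SLC7A5 and the arginine transporter SLC7A1. SLC1A3 (EAAT1, a sodium-coupled glutamate and aspartate transporter best known from glial cells; chr5:36606355-36688334, plus strand, GRCh38) had 180, 131 and 218 counts in controls 1 to 3, whereas shtRF cells gave 20, 26 and 26 counts. Every shtRF library was thus far under every control library, although the gene was weakly expressed even in controls, at 2.41 ± 0.586 CPM (mean ± SD, n = 3). Its log2 fold change was -2.74 ± 0.26 (SE), a 6.68-fold fall (edgeR adjusted p = 1.93e-08).

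SLC1A7 (EAAT5, a glutamate transporter with a large chloride conductance, known from the retina; chr1:53087179-53142632, minus strand) had 4421, 5107 and 5903 counts across the controls, compared with 1797, 1836 and 1581 in shtRF cells. The 3 shtRF libraries lay close together and well under the controls. The mean level fell from 69.8 ± 3.56 to 25.9 ± 0.692 CPM, and the log2 fold change was -1.43 ± 0.06 (2.69-fold, edgeR adjusted p = 3.15e-14). The third acidic amino acid transporter among the members, SLC1A1 (EAAT3), had 7 to 16 counts in every library and its log2 fold change was 0.0021 ± 0.55 (edgeR adjusted p = 0.999), which at such depth leaves its change undetermined.

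SLC7A5 (LAT1, which exchanges large neutral amino acids such as leucine; chr16:87830023-87869488, minus strand) had 2246, 2144 and 1264 counts in controls 1 to 3, whereas shtRF cells gave 519, 593 and 520 counts. Control replicate 3 was the lowest control, and all shtRF libraries were still under it. The log2 fold change was -1.69 ± 0.17 (3.22-fold, edgeR adjusted p = 5.78e-08), and -1.95 ± 0.09 without control replicate 3. Reads from its pseudogene copies could be credited to either gene. SLC7A5P2 had 167 to 368 counts per library, and its own log2 fold change was -0.36 (edgeR adjusted p = 0.077). Exons of other genes cover 5.71% of SLC7A5, with the largest part from RP4-536B24.2 on the opposite strand, whose log2 fold change was -2.02.

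SLC7A1 (CAT1, the main carrier of arginine and lysine in most cells; chr13:29509410-29595688, minus strand) had 2933, 3182 and 2024 counts across the controls, compared with 1250, 1228 and 1053 in shtRF cells. The groups did not overlap, and control replicate 3 was again the lowest control. The log2 fold change was -1.09 ± 0.13 (2.13-fold, edgeR adjusted p = 6.03e-07), and -1.31 ± 0.07 without control replicate 3. It was the one cationic carrier kept of 5 matched. SLC7A2, SLC7A3, SLC7A4 and SLC7A14 had at most 6 counts in any library.

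The promoters of these 4 genes were read from RefSeq (GRCh38.p14), because MYC, ATF4 and NFE2L2 are textbook regulators of amino acid transporters and their own mRNAs were measured in the same libraries. The 250 bases before each transcription start were searched on both strands for 3 motifs. These were the MYC-type E-box CACGTG, the composite element TGATGNAA bound by ATF4 dimers and the antioxidant response element core TGACNNNGC bound by NFE2L2. RefSeq starts matched 21 of the 25 members, with 41 windows. The stretches below show the match nearest to the start outside annotated exons in each of the 4 genes, and the match in SLC7A8, which was not called, for comparison. Each runs 5′ to 3′ on the gene's strand, with the motif in capitals.
SLC1A3, ATF4-type element at chr5:36596348-36596395, plus strand: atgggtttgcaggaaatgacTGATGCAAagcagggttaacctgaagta
SLC1A7, E-box at chr1:53142673-53142718, minus strand: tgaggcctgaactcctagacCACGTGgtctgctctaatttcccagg
SLC7A5, E-box at chr16:87869612-87869657, minus strand: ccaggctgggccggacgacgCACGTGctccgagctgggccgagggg
SLC7A1, antioxidant response element core at chr13:29595745-29595793, minus strand: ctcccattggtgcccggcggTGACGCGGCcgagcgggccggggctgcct
SLC7A8, E-box at chr14:23154497-23154542, minus strand: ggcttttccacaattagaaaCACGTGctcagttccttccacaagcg

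The SLC1A3 stretch belongs to a RefSeq start upstream of the first exon that the count table gives for the gene. The SLC7A8 stretch belongs to a RefSeq start inside the gene, whose 5′ end in the count table is at chr14:23183674. The E-box was found in 7 of the 41 member windows, or 17.1%, against 6.34% of 35116 promoter windows of the same length. These 7 windows belonged to SLC1A5, SLC1A7, SLC36A1, SLC38A5, SLC7A5, SLC7A7 and SLC7A8. Among the members with a window, SLC1A7 and SLC7A5 were thus the only called ones with an E-box match. SLC1A5, SLC36A1, SLC38A5, SLC7A7 and SLC7A8 had a match and were not called. Members without a RefSeq start could not be searched. The antioxidant response element core was found in 6 of the member windows (10.9% of all windows) and the ATF4-type element in 4.88% (3.14% of all windows). The core lay before SLC1A3 and SLC7A1, and also before SLC1A5, SLC3A2, SLC7A6 and SLC7A7, which were not called. The ATF4-type element lay before SLC1A3 and SLC1A5. SLC1A5 thus had a match to each of the motifs, with a log2 fold change of 0.01. A match describes the letters in the window and says nothing of binding.

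The heavy chain SLC3A2 (CD98hc) had 7273, 7515 and 5161 counts in controls 1 to 3, whereas shtRF cells gave 5763, 5200 and 5243 counts. Control replicate 3 was lower than every shtRF library once scaled to depth, at 64.7 CPM against 75.7 to 84.6 CPM, so the groups overlapped. The log2 fold change was -0.19 ± 0.12 (edgeR adjusted p = 0.219). The kidney heavy chain SLC3A1 (rBAT) had 246 to 310 counts per library and a log2 fold change of 0.03 ± 0.13 (edgeR adjusted p = 0.88). However, exons of other genes, with the largest part from PREPL, cover 29.4% of its exonic length.

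Among the light chains, SLC7A5 was the one called. SLC7A11 (xCT, the cystine and glutamate exchanger) had 1876, 1763 and 632 counts across the controls, compared with 982, 907 and 866 in shtRF cells. The shtRF libraries were alike, at 13.98, 13.21 and 13.97 CPM, and lay between controls 1 and 2 (28.8 and 23.3 CPM) and control replicate 3 (7.92 CPM). The log2 fold change was -0.54 ± 0.24 (edgeR adjusted p = 0.087). Exons of other genes cover 8.97% of the exonic bases of SLC7A11, with the largest part from its antisense neighbour SLC7A11-AS1. SLC7A11-AS1 had 711, 593 and 170 counts in controls and 357, 298 and 284 in shtRF libraries. Since it is not stated whether counting used strand, reads of SLC7A11 and SLC7A11-AS1 in the shared bases cannot be told apart.

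SLC7A8 (LAT2, an exchanger of large and small neutral amino acids) was nearly level, at 51.8 ± 2.24 CPM in control and 51.1 ± 1.21 CPM in shtRF cells, with a log2 fold change of -0.02 ± 0.06 (edgeR adjusted p = 0.809). SLC7A6 (y+LAT2, which exchanges arginine for glutamine) had a log2 fold change of 0.11 ± 0.05 (edgeR adjusted p = 0.139). Exons of other genes cover 55.6% of it, with the largest part from SLC7A6OS, whose log2 fold change was 0.10. SLC7A7 (y+LAT1) was near the floor of detection, with 24 to 56 counts per library.

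Levels can be compared between genes only per length, in RPKM (the count divided by the exonic length in kilobases and by the library total). The ratio of SLC3A2 to the summed RPKM of the light chains that pair with it was 0.787, 0.749 and 0.578 in controls 1 to 3 and 0.769, 0.708 and 0.756 in shtRF cells. The groups overlapped, and the ratio did not differ beyond the spread (exact permutation test, two-sided, p = 0.8; 3 libraries against 3 cannot give a p under 0.1). Summed light chain RPKM was 25.4 ± 3.15 in control and 20.6 ± 0.633 in shtRF libraries, without overlap (exact permutation p = 0.1). The gap was narrow, with 21.84 in control replicate 3 and 21.07 in shtRF replicate 3. RPKM lacks the TMM scaling that CPM carries, so the lack of overlap may depend on the scaling.

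The make-up of the light chains differed more than their ratio to the heavy chain. SLC7A5 gave 26.5%, 23.3% and 15.5% of light chain RPKM in controls 1 to 3, and 7.56%, 8.81% and 8.19% in shtRF cells, without overlap (exact permutation p = 0.1, the smallest possible). The share of SLC7A6 was 34.6% ± 4.47 in control and 43.8% ± 0.473 in shtRF libraries, also without overlap (exact permutation p = 0.1). These are shares of a sum, so a lower share of SLC7A5 raises the shares of the other light chains. Exons of other genes cover 55.6% of SLC7A6, and the strand setting of counting is not stated. Its RPKM is therefore uncertain, and so are the light chain sum, the ratio and the shares built on it.

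**Figure D2:**
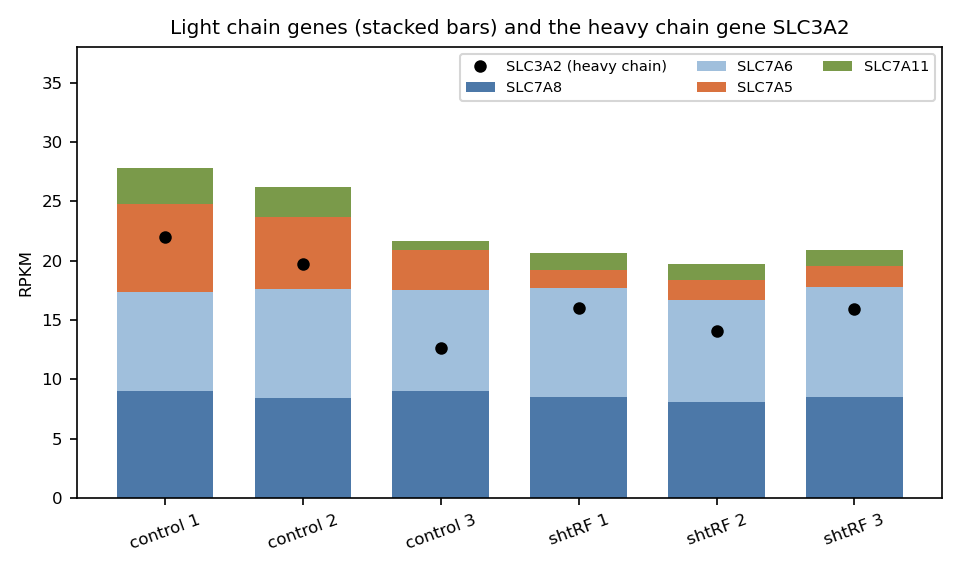
RPKM of the light chain genes SLC7A8, SLC7A6, SLC7A5 and SLC7A11 (stacked bars) and of the heavy chain gene SLC3A2 (black dots) in each of the 6 libraries, with the 2 weakest light chains left out. SLC7A5 shrinks from 15.5% to 26.5% of the light chain sum in control to 7.56% to 8.81% in shtRF libraries, and in control replicate 3 the heavy chain dot is the lowest of all.

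The neutral exchangers were not called. SLC1A5 (ASCT2, the glutamine exchanger) had 11314, 12485 and 10676 counts in controls 1 to 3, whereas shtRF cells gave 11241, 10735 and 9950 counts. It had the highest RPKM of all members, at 48.2 ± 6.67 in control and 46.8 ± 1.67 in shtRF libraries, and its log2 fold change was 0.01 ± 0.07 (edgeR adjusted p = 0.917). Exons of other genes, with the largest part from CTB-147N14.6, cover 23.8% of SLC1A5. SLC1A4 (ASCT1, an exchanger of alanine, serine and cysteine) lay at 28.8 ± 3.68 CPM in control and 26.8 ± 0.394 CPM in shtRF cells, with a log2 fold change of -0.11 ± 0.08 (edgeR adjusted p = 0.306).

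The sodium-coupled neutral family SLC38 held 8 of the members, of which 3 rose, 1 fell and 4 were not called. Over all tested genes 20.6% were called higher and 18.9% lower, and 8 genes are too few to read a family pattern. SLC38A1 (SNAT1, a carrier for net glutamine uptake) had 14282, 17138 and 17637 counts across the controls, compared with 18639, 18040 and 16562 in shtRF cells. Scaled to depth the groups did not overlap, at 219.6 to 226.9 CPM against 262.7 to 267.1 CPM. The rise was small but tight, with a log2 fold change of 0.25 ± 0.05 (1.19-fold, edgeR adjusted p = 3.5e-04).

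SLC38A2 (SNAT2, a glutamine and alanine carrier that cells raise when amino acids run short) moved the other way. It had 9078, 9873 and 8748 counts in controls 1 to 3, whereas shtRF cells gave 7842, 7130 and 6631 counts, and control replicate 3 (109.6 CPM) lay within the shtRF range of 103.8 to 111.6 CPM. The log2 fold change was -0.24 ± 0.07 (1.18-fold, edgeR adjusted p = 0.0087). The call was lost under 4 of 16 alternatives (limma-trend on 2 RPKM scales and leaving out control replicate 1 or shtRF replicate 2), with adjusted p from 0.0517 to 0.0736 there and from 6.33e-05 to 0.0736 over all of them.

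SLC38A6 (SNAT6, a little-studied member of the family) had 297, 351 and 423 counts across the controls, compared with 596, 466 and 408 in shtRF cells. At 4.57 to 5.30 CPM against 6.58 to 8.49 CPM the groups did not overlap, and shtRF replicate 1 was the highest. The log2 fold change was 0.59 ± 0.12 (1.51-fold, edgeR adjusted p = 4.05e-04), the largest rise among the called members. SLC38A10, an intracellular member of the family, also rose, from 124.9 to 135.2 CPM in control to 145.6 to 166.3 CPM in shtRF libraries (log2 fold change 0.27 ± 0.06, edgeR adjusted p = 6.52e-04).

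SLC38A9, the lysosomal arginine sensor, had 137, 198 and 175 counts in controls 1 to 3, whereas shtRF cells gave 155, 209 and 128 counts. The groups overlapped throughout, and the log2 fold change was 0.08 ± 0.18 (edgeR adjusted p = 0.762). SLC38A7 (SNAT7, which exports glutamine from lysosomes) had a log2 fold change of -0.07 ± 0.11 (edgeR adjusted p = 0.675). The system N carriers SLC38A3 and SLC38A5 were under 1 CPM in both groups, as were SLC7A7 and SLC1A1, and none of these 4 was called.

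Of the proton-coupled carriers, SLC36A4 (PAT4, a carrier with high affinity for proline and tryptophan) rose from 10.6 ± 0.169 to 13.1 ± 0.514 CPM (log2 fold change 0.30 ± 0.08, edgeR adjusted p = 0.0051). The call was lost with limma-trend on both RPKM scales (adjusted p = 0.0837 and 0.112, against 0.0028 to 0.112 over 16 alternatives). SLC36A1 (PAT1, found at lysosomes) lay at 3.47 ± 0.425 CPM in control and 3.98 ± 0.212 CPM in shtRF cells and was not called (edgeR adjusted p = 0.268).

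Of the facilitative family, SLC43A2 (LAT4, a uniporter for large neutral amino acids) had a log2 fold change of 0.24 ± 0.16 and was not called (edgeR adjusted p = 0.264). SLC43A3 fell from 85.4 ± 5.29 to 67.0 ± 3.48 CPM (log2 fold change -0.35 ± 0.06, 1.28-fold, edgeR adjusted p = 5.32e-05). It shares the family name but is known as a carrier of purine nucleobases rather than amino acids. Exons of other genes cover 29.9% of SLC43A3, with the largest part from RP11-872D17.8, whose log2 fold change was -0.33.

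By RPKM in the control libraries, SLC1A5 was followed by SLC38A1 (22.6 ± 0.528), SLC38A2 (19.5 ± 2.45), SLC43A3 (19.3 ± 1.20), SLC3A2 (18.1 ± 4.87), SLC38A10 (17.1 ± 0.738) and SLC1A7 (13.2 ± 0.595). The ranges of SLC38A2, SLC43A3 and SLC3A2 over the 3 libraries overlapped. That of SLC38A10 overlapped those of SLC38A2 and SLC3A2, and that of SLC1A7 overlapped that of SLC3A2, so the order of these genes is not settled. In the shtRF libraries SLC1A7 was at 4.71 ± 0.0917 RPKM and SLC7A5 went from 5.64 ± 2.06 to 1.68 ± 0.0973 RPKM. The 15 matched genes that were not kept had at most 24 counts in any library, 12 of them at most 12, and none was tested.

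**Figure D3:**
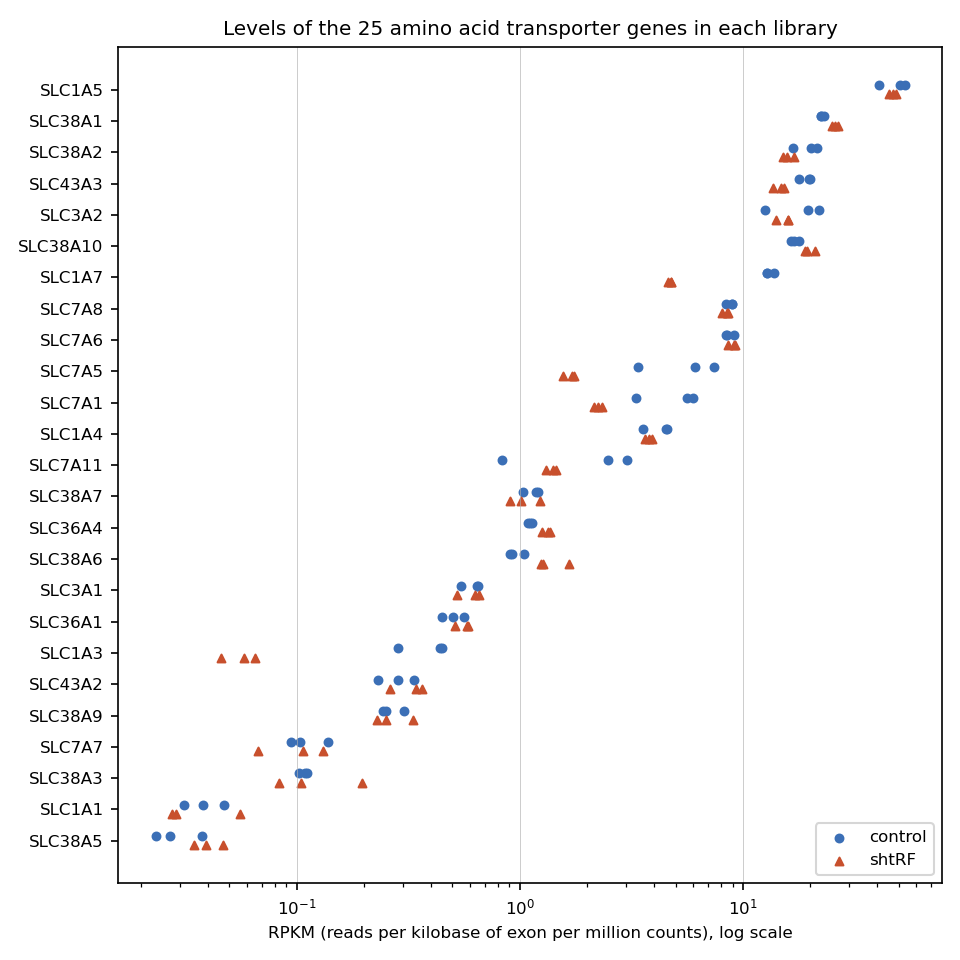
RPKM on a log axis for each of the 25 members in each library (circles, control; triangles, shtRF), ordered by the level in control libraries. SLC1A5 is highest at 40.6 to 53.1 RPKM in control, and the shtRF triangles of SLC1A3, SLC1A7, SLC7A5 and SLC7A1 lie left of all their control circles. For SLC7A11, SLC3A2, SLC1A5, SLC1A4 and SLC43A2, 1 control circle lies left of every triangle.

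That low circle was control replicate 3 in each of these genes. Of the 21 members with a mean of at least 50 counts, 7 were under 80% of the mean of control replicates 1 and 2 in this library, namely SLC7A11 (30.3%), SLC7A5 (50.3%), SLC7A1 (58.1%), SLC3A2 (61.2%), SLC43A2 (75.3%), SLC1A5 (78.9%) and SLC1A4 (79.4%). In each of the other libraries, set against the other 2 of its own group in the same way, 0 or 1 of the 21 was that low. Over 15475 genes with such counts, 6.75% were that low in control replicate 3 and 4.08% to 5.19% in the other libraries. SLC38A1 (99%), SLC7A8 (104.2%) and SLC1A7 (109.1%) were not low in this library. The comparison was chosen after the values were seen, and the cause was not tested.

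**Figure D4:**
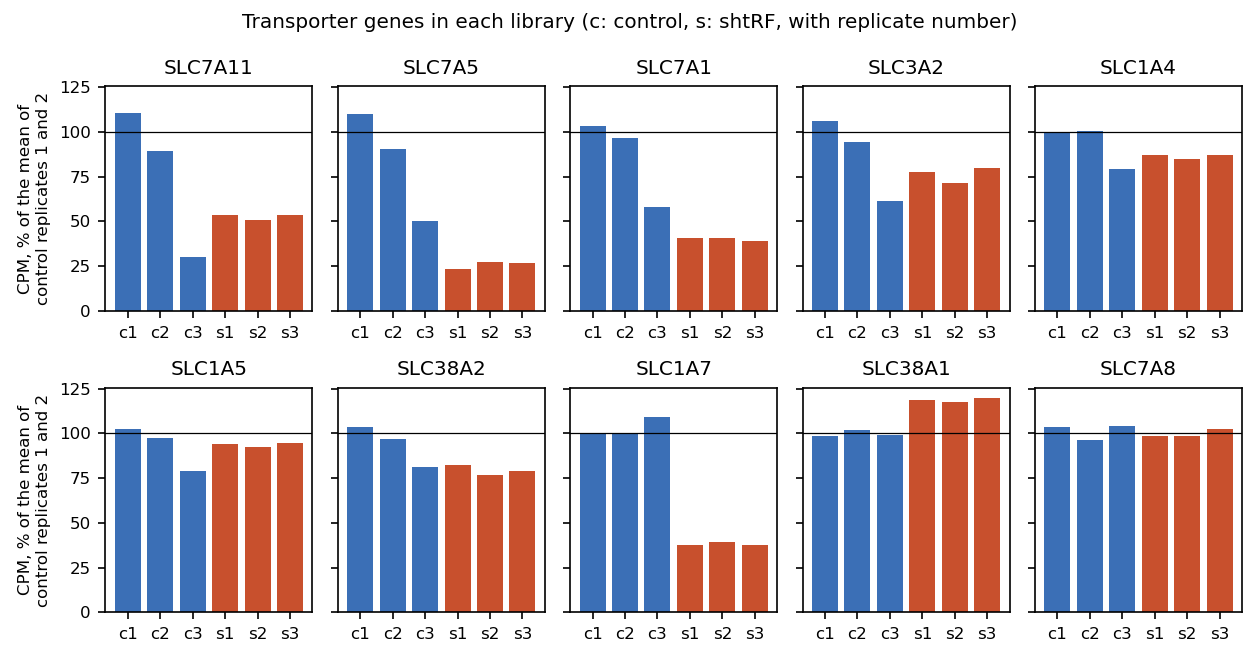
CPM of 10 members in each library as a percentage of the mean of control replicates 1 and 2 (c1 to c3, control; s1 to s3, shtRF; the line marks 100%). Control replicate 3 is at 30.3% for SLC7A11 and 61.2% for SLC3A2, under the shtRF libraries, whereas for SLC1A7, SLC38A1 and SLC7A8 it is within 10% of the other controls.

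Without control replicate 3, 13 members were called, against 37.4% of all tested genes. All 10 earlier calls were among them. There were 4 higher (background 19.6%) and 9 lower (background 17.9%). The 3 added calls were SLC7A11 (log2 fold change -0.93 ± 0.09, edgeR adjusted p = 8.99e-09, range 1.78e-09 to 0.597 over 16 alternatives), SLC3A2 (-0.39 ± 0.06, edgeR adjusted p = 2.91e-05, range 2.91e-05 to 0.873) and SLC1A4 (-0.21 ± 0.06, edgeR adjusted p = 0.014, range 0.014 to 0.662). All 3 were among the members named above as low in control replicate 3. Leaving that library out raises their control mean and narrows their control spread. The added calls thus follow from the choice of library and are no separate evidence of a fall. The direction of the heavy to light chain ratio turned without control replicate 3, from a difference of 0.04 to -0.0232 (exact permutation p = 0.6).

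**Figure D5:**
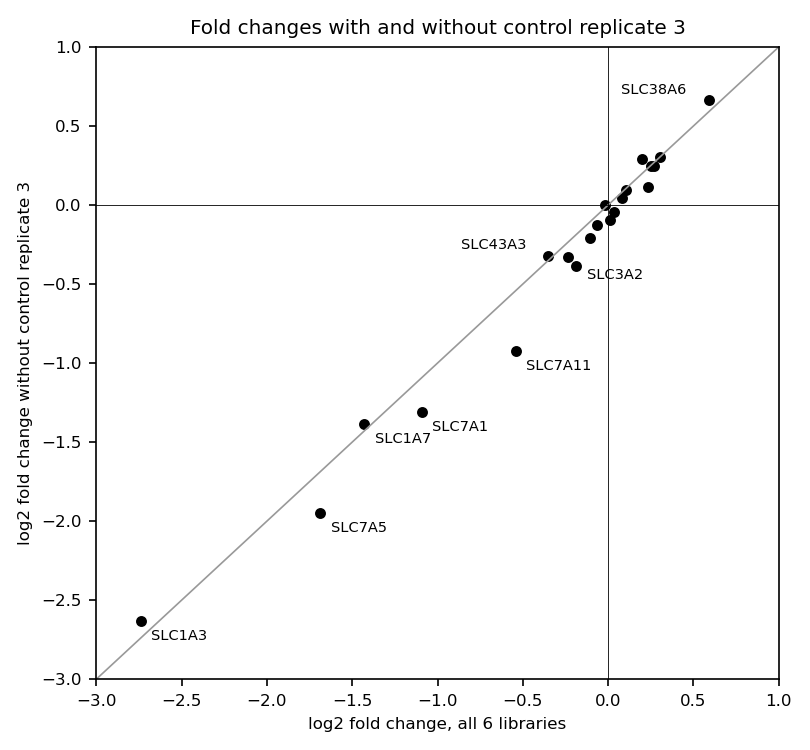
Log2 fold change over all 6 libraries (x axis) against that without control replicate 3 (y axis) for the members with a mean of at least 1 CPM in either group, with the line of equality. SLC7A11 moves from -0.54 to -0.93 and SLC7A5 from -1.69 to -1.95, whereas SLC1A7 goes from -1.43 to -1.38 and SLC1A3 from -2.74 to -2.64.

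Other genes of amino acid handling were counted from 4 lists, and each is set against 20.6% of all tested genes called higher and 18.9% called lower. Of 14 tested amino acid transporters outside the 6 families, 4 were higher and 3 lower, with a median log2 fold change of -0.03. Among the called ones the mitochondrial ornithine carrier SLC25A15 changed most, from 9.86 to 6.30 CPM (log2 fold change -0.65, edgeR adjusted p = 1.88e-05).

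Of 36 genes of amino acid sensing, 2 were higher and 8 lower, with a median of -0.04. This list held MTOR, RPTOR, MLST8 and EIF2AK4 besides genes upstream of mTORC1. RRAGD, one of the Rag GTPases that bring mTORC1 to the lysosome, had 2.28, 2.12 and 2.03 CPM in the 3 controls, compared with 0.712, 0.0874 and 0.323 CPM in shtRF cells (log2 fold change -2.50 ± 0.36, edgeR adjusted p = 8.11e-06). At such low levels single libraries weighed much, and the log2 fold change was -3.41 without shtRF replicate 1 and -2.02 without shtRF replicate 2. Its relative RRAGC rose from 18.8 to 21.3 CPM in control to 30.7 to 31.5 CPM in shtRF libraries (log2 fold change 0.63, edgeR adjusted p = 1.19e-07). The leucine sensor SESN2 was lower (log2 fold change -0.90, edgeR adjusted p = 4.38e-04), but control replicate 3, at 16.1 CPM, lay within the shtRF range of 14.8 to 17.6 CPM. Its call was lost with limma-trend on both RPKM scales (adjusted p = 0.0741 and 0.066, against 3.29e-30 to 0.0741 over 16 alternatives). LAPTM4B, which recruits SLC7A5 and SLC3A2 to lysosomes, was low throughout and fell from 1.78 to 1.09 CPM (log2 fold change -0.71, edgeR adjusted p = 0.0115). This call was lost without shtRF replicate 2 or 3 (edgeR adjusted p = 0.0515 and 0.051, against 0.0057 to 0.0515 over 16 alternatives).

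Of 28 tested enzymes of amino acid metabolism, 6 were higher and 11 lower, with a median of -0.14. ASS1, which makes argininosuccinate on the way to arginine, had 22.5, 21.3 and 17.7 CPM in the 3 controls, compared with 1.82, 1.79 and 2.26 CPM in shtRF cells. Its log2 fold change of -3.39 ± 0.12 (edgeR adjusted p = 2.18e-15) was larger in size than that of any member. GPT2, a mitochondrial alanine transaminase, was at 158.7, 128.2 and 70.1 CPM in control and 59.2 to 63.5 CPM in shtRF libraries (log2 fold change -0.96 ± 0.16, edgeR adjusted p = 4.72e-05), with control replicate 3 again the lowest control.

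Of 18 regulators of transporter genes, 5 were higher and 10 lower, with a median of -0.23. MYC was at 20.5 to 21.8 CPM in controls and 7.18 to 7.76 CPM in shtRF cells (log2 fold change -1.48 ± 0.08, edgeR adjusted p = 2.51e-12). ATF4, the factor that raises many transporter genes under amino acid shortage, had 407.7, 385.8 and 259.5 CPM in control and 255.8, 231.4 and 227.9 CPM in shtRF libraries. Its log2 fold change was -0.56 ± 0.10 (edgeR adjusted p = 1.63e-04), and control replicate 3 was close to the highest shtRF library. NFE2L2, a regulator of SLC7A11, was at 66.3 to 71.7 CPM in control and 59.4 to 61.5 CPM in shtRF libraries (log2 fold change -0.19 ± 0.05, edgeR adjusted p = 0.0076). TFEB, a lysosomal gene regulator, rose (log2 fold change 0.62, edgeR adjusted p = 7.06e-07). ATF4 in control replicate 3 was at 65.4% of the other 2 controls, and MYC at 96.2%. Whether the levels of these factors bear on those of the transporters was not tested.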

How the data were processed

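Messenger RNA of 6 libraries was analysed, grouped by sample title. The authors deposited raw read counts per gene with exon coordinates and lengths. Per the submitters' processing notes, Trimmomatic 0.36, featureCounts, Subread 1.5.1 and edgeR 3.12.1 were used with GRCh38. The aligner and the strand setting of counting are not given in the sources used here. Among counts of 1 to 4, 74.2% to 77.1% were even, against 49.7% to 50.7% of counts of 1000 or more. The authors also deposited RPKM values, and 100% of those of 4991 genes equalled count over length and library total within 0.1%, so RPKM of the members was computed in that way.

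Counts were tested with edgeR 4.0.16 (R 4.3.3) by filterByExpr, TMM (factors 0.961 to 1.03) and the quasi-likelihood test with group alone. Benjamini-Hochberg adjustment ran over 19628 genes, and the coefficient of variation between replicates was 7.56%. CPM carries the TMM factors, RPKM does not. The steps were tested on simulated data. They recovered 77 of 95 changes of 2-fold and 71 of 98 changes of 1.5-fold, with 6 false calls, so some true changes were missed. limma 3.58.1 and DESeq2 1.42.0 served as alternatives. Promoter windows came from RefSeq.

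The members and lists were chosen with earlier results of these data known. Every kept member is accounted for. Library values are given for called members changed at least 1.4-fold and for SLC3A2, SLC7A5, SLC7A11, SLC1A5, SLC7A1, SLC38A1, SLC38A2 and SLC38A9. Other list genes are named at 1.5-fold or more, with ATF4, MYC and NFE2L2. Another gene of the regulator list is not reported here.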

Additional observations from a re-analysis of the deposited data

How the results depend on the processing

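The count of members higher in shtRF cells, 4, was 1 at an added limit of 1.5-fold and 0 at 2-fold. Under limma-trend on log2(RPKM + 1) and on log2(RPKM + 0.1), 1 sensing gene was higher instead of 2, 3 enzymes were higher instead of 6, and 6 regulators were lower instead of 10. With 1 library left out, 5 to 9 members were lower and 4 were higher in each case, 1 to 2 sensing genes were higher (1 without control replicate 2, shtRF replicate 1 or shtRF replicate 2) and 5 to 8 lower (5 without shtRF replicate 3), and 6 to 11 enzymes were lower (6 without control replicate 2 or shtRF replicate 3). With no filter beyond 1 count, SLC3A2 (adjusted p = 0.00826) and SLC7A11 (adjusted p = 1.78e-09) were called lower. The difference in the heavy to light chain ratio, 0.04, was -0.0232 without control replicate 3 and up to 0.0811 with another library left out. Same-numbered libraries did not deviate together (correlations 0.0592, 0.0178 and 0.0174), so the numbers were not taken as pairs. With the replicate number as a block, 4 members were higher and 6 lower, as with RLE or upper quartile scaling, DESeq2 and halved counts. Depth limits SLC7A7, SLC38A3, SLC1A1 and SLC38A5, and counts may exceed the fragments behind them if both mates were counted. The cause of these changes was not tested.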

Other observations

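SLC1A2 (EAAT2), a glutamate transporter of the same family as SLC1A3 and SLC1A7, was under the count minimum and was not tested. Controls 1 to 3 gave 8, 12 and 24 counts and shtRF cells gave 6, 0 and 4, and control replicate 3 was the highest library.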
